A study of Mus musculus with 13 samples.

Results

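The tumour suppressor p53, encoded by Trp53, and 9 genes that it is known to activate (Cdkn1a, Mdm2, Ccng1, Zmat3, Phlda3, Trp53inp1, Eda2r, Perp and Aen) were followed across the DN3 and DN4 stages of thymocyte development. The 10 genes were taken by name from the 47937 genes of the count table, and all 10 were present. The table holds 13 libraries from 7 mice, all 6 weeks old. The Wt group was WT;Lck-Cre+ (3 DN3 and 4 DN4 libraries) and the KO-labelled group was Opa1fl/fl;Lck-Cre+ (3 DN3 and 3 DN4 libraries), so both genotypes carried the Lck-Cre transgene, which expresses Cre recombinase in developing T cells. DN3 cells were sorted as CD44lowCD25high and DN4 cells as CD44lowCD25low thymocytes. Mice KO45, KO49, KO51, WT05, WT46 and WT48 gave both stages, and WT40 gave DN4 alone.

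p53 is a transcription factor that is held at low protein levels by the ubiquitin ligase Mdm2 and is stabilised after DNA damage or other stress. It then activates genes that stop the cell cycle, promote repair or lead to apoptosis, and it also activates Mdm2, which closes a negative feedback loop. In thymocytes it is best known for the death of cells with broken DNA, and in DN3 cells it is a checkpoint on cells that rearrange the Tcrb locus. DN3 cells that pass beta-selection enter the cell cycle and proceed to DN4. Much of the control of p53 acts on the protein, which RNA counts do not measure.

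The promoters are shown because the members are grouped here as genes that p53 is known to bind or activate. RefSeq promoter entries on GRCm38.p6 were held for 7 of the 10 members, and none for Zmat3, Trp53inp1 or Perp. The p53 response element is a pair of copies of a consensus decamer, a stretch of 10 bases that reads alike on both strands, so that a search of one strand covers both. An exact copy of the decamer lay within 250 bases upstream of a start of 5 of these 7 members (Trp53, Cdkn1a, Mdm2, Ccng1 and Aen), against 7.13% of all 32851 promoters searched. A pair with at most 1 mismatch in all and at most 13 bases between the copies lay in 2 members, Cdkn1a and Ccng1, against 0.898% of all promoters. Members are counted by gene, with a match at any listed start (2 starts for Cdkn1a and for Aen), and the percentages are by promoter. A match describes the letters of this window and is not evidence of binding in these cells, and a window without a match says nothing of p53 binding elsewhere in the gene. In the lines that follow capitals mark the decamers, each run is written along the strand of its gene, and the Aen run lies upstream of the second of its listed starts and inside the transcript that begins at the first.

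Cdkn1a, chr17:29090896-29090957, plus strand: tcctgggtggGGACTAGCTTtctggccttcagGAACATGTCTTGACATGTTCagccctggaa
Ccng1, chr11:40755452-40755491, minus strand: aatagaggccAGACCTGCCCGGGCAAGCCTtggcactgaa
Trp53, chr11:69580274-69580303, plus strand: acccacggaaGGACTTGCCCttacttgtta
Mdm2, chr10:117710925-117710954, minus strand: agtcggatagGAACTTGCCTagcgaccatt
Aen, chr7:78895927-78895956, plus strand: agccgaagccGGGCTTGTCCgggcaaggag

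In Cdkn1a the first and the second marked decamer had no mismatch and stood 12 bases apart, and the rest of the capitals is a further decamer with 1 mismatch that adjoins the second. All 3 lay between 73 and 32 bases upstream of the Cdkn1a start at position 29090979 of chromosome 17. The other listed start lies 2790 bases downstream, so these decamers fall outside its searched window. That window held no exact decamer and no pair. The Ccng1 pair had 1 mismatch and no bases between its copies, 195 to 176 bases upstream of the start. Trp53 and Mdm2 each had a single decamer, and Phlda3 and Eda2r had none in the window.

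The libraries held 5926848 to 14148661 counts, with a median of 10023044. Levels are given as CPM, counts scaled to a common library total, after TMM scaling, a correction for RNA composition. The DN3 library of WT05 stood apart, since 8 genes of ribosomal RNA or ribosomal RNA-like sequence, chosen after their counts were seen, took 41.1% of its counts against 0.44% to 1.74% in the other 12, which left 3491009 counts on other genes. T lineage markers were present in every library (Cd3e from 253 to 378 CPM). Il2ra, which encodes the CD25 used for sorting, was at 727 to 1337 CPM in DN3 and at 9.78 to 24.1 CPM in DN4, and Ptcra at 76.1 to 157 and 17.9 to 52.1 CPM. Opa1, the targeted gene, was counted over the whole gene at 91.1 to 111.8 CPM in Wt DN3 and 88.6 to 93.8 CPM in KO-labelled DN3, and at 85.1 to 93.8 and 77.0 to 88.0 CPM in the DN4 groups, so the counts do not separate the genotypes by label. Counts over the whole gene do not show whether the floxed part was deleted, and the second genotype is called KO-labelled throughout. Xist and Y-linked Ddx3y also differed by mouse. Ddx3y was at 0 in all KO-labelled libraries and above 0 in the Wt mice WT40 and WT46, so sex was not balanced between the genotypes and its part in the genotype comparisons was not tested.

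Markers of other cells moved with the stage. The summed level of 7 B cell markers (7 of 7 detected in every group, Cd79a among them) was 21.6 to 56.5 CPM in DN3 and 242.3 to 3067 CPM in DN4. The summed level of 4 markers of the later ISP and DP stages, Cd8a among them, was 53.9 to 116 CPM in DN3 and 323.4 to 2926 CPM in DN4. The B cell sums of the DN4 groups overlapped, from 337.7 to 3067 CPM in Wt and from 242.3 to 1823 CPM in KO-labelled mice. The stromal sum of 4 markers, mostly Epcam, was 16.7 to 58.5 CPM in DN3 and 9.33 to 12.2 CPM in DN4, with Col1a2 and Krt8 at 0 in DN3. Myeloid sums overlapped, between 3.98 and 13.9 CPM, with Cd14 at 0 in 3 of the 4 groups, but Lyz2 had means of 8.71 and 10.3 CPM in Wt and KO-labelled DN3 and of 1.30 and 0.975 CPM in DN4. The NK cell genes Klrb1c and Ncr1 were at 0 in all DN3 libraries and were detected in every DN4 library. There Klrb1c was at 1.39 to 4.49 CPM and Ncr1 had 1 to 52 counts. The summed NK and ILC markers overlapped between the stages. So did the sums of 3 gamma delta T markers, at 580.6 to 1001 CPM in DN3 and 503.3 to 1399 CPM in DN4. Among these, the mean of Sox13 went from 71.0 to 218.7 CPM in Wt and from 68.0 to 118.7 CPM in KO-labelled mice. That of Trdc went from 319.7 to 555.3 and from 354.6 to 417.0 CPM, and that of Tcrg-C1 from 398.7 to 160.3 and from 430.7 to 107.2 CPM. Erythroid sums were at most 1.06 CPM in DN3 and 5.68 CPM in DN4. In sorted bulk RNA, fewer cells of a type and less RNA per cell cannot be told apart.

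The question of the stage comparison was how p53 and its targets differ between DN3 and DN4 thymocytes of the same genotype. Cdkn1a fell and Zmat3 rose from DN3 to DN4 in both genotypes, by more than any other tested member. Ccng1 and Trp53inp1 rose in Wt. Trp53 itself, Mdm2, Phlda3 and Aen did not pass the test in either genotype, and Perp and Eda2r did not pass the filter on low counts there. So 3 of 8 tested members rose and 1 fell in Wt, and 1 of 8 rose and 1 fell in KO-labelled mice.

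Among all 12691 genes tested in Wt, 22.9% passed an adjusted p of 0.05 (edgeR quasi-likelihood test with Benjamini-Hochberg adjustment over all genes), 13.4% higher and 9.43% lower in DN4. Among the 12580 genes tested in KO-labelled mice the share was 18.6%, 11.2% higher and 7.34% lower. The members' 4 of 8 in Wt stand against this background of 22.9%, and their 2 of 8 in KO-labelled mice are near the background of 18.6%. The median log2 difference over the 8 members was 0.04 in Wt and 0.06 in KO-labelled mice, beside -0.03 and -0.02 over all genes tested. The CPM of the DN3 and DN4 libraries did not overlap for 4 of 8 members in Wt, where 35% of all genes tested did not overlap, and for 5 of 8 in KO-labelled mice, where the share was 38.7%.

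**Figure D1:**
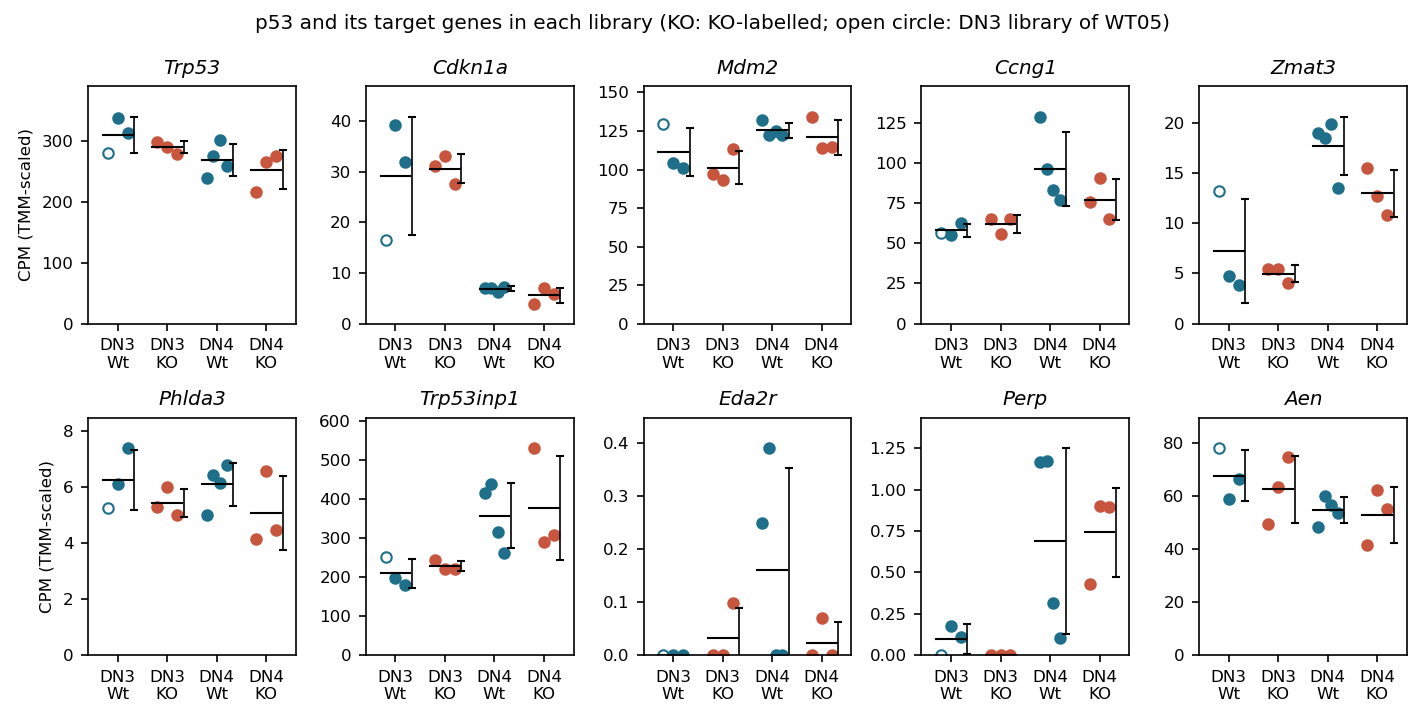
CPM after TMM scaling of each member in every library, by stage and genotype, on linear axes from 0 that differ between genes. Points are libraries, lines are group means and bars the SD (n = 3, 3, 4 and 3). Cdkn1a lies at 16.4 CPM or above in DN3 and at 7.3 CPM or below in DN4, while Phlda3 lies between 4.15 and 7.38 CPM in all 4 groups.

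Trp53 (chromosome 11, 69580359 to 69591873, coordinates of whole genes here and below on GRCm38) was the most abundant member per length of transcript, at 76.8 ± 7.25 CPM per kb of exon in Wt DN3 (SD, n = 3), above 95.96% of 11513 expressed coding genes. In CPM it was at 280 (WT05), 338.5 (WT46) and 313.6 (WT48) in Wt DN3 and at 299 (KO45), 291 (KO49) and 279.6 (KO51) in KO-labelled DN3. In DN4 it was at 240 (WT05), 276.6 (WT40), 301.8 (WT46) and 259.6 (WT48) in Wt and at 217 (KO45), 266.6 (KO49) and 276.5 (KO51) in KO-labelled mice. The Wt groups overlapped, and the KO-labelled groups were separated by a narrow gap between the highest DN4 and the lowest DN3 library. The group means ran from 310.7 ± 29.3 in Wt DN3 through 290.1 ± 9.95 in KO-labelled DN3 and 269.5 ± 26.2 in Wt DN4 to 253.4 ± 31.8 CPM in KO-labelled DN4 (SD, n = 3, 3, 4 and 3), and no neighbours in this order differed by more than the larger of their SDs. The fitted DN4 to DN3 difference was -0.23 (SE 0.12, adjusted p = 0.215 by edgeR) in Wt and -0.22 (SE 0.13, adjusted p = 0.272 by edgeR) in KO-labelled mice on the log2 scale. Within each of the 6 mice with both stages the DN4 value was the lower, by log2 differences of -0.46 to -0.02.

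The genes whose profile over the 13 libraries was nearest to that of Trp53 were Mrps5, Gpi1 and Adh5. Their root mean square differences from it, in centred log2 CPM among the 13360 other genes that passed the filter, were 0.0694, 0.0793 and 0.086. For Cdkn1a they were 5830468F06Rik, Ogdhl and Repin1, at the larger distances of 0.197, 0.236 and 0.262.

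Mdm2, the ubiquitin ligase that marks p53 for degradation, lies on chromosome 10 at 117688875 to 117710758 and was at 92.9 to 134 CPM over all 13 libraries. In DN3 it was at 129 (WT05), 104 (WT46) and 101 CPM (WT48) in Wt and at 97.3 (KO45), 92.9 (KO49) and 113.4 CPM (KO51) in KO-labelled mice. In DN4 it lay between 122 and 132 CPM in the 4 Wt libraries and was at 134, 113.9 and 114.5 CPM in KO45, KO49 and KO51. The Wt groups overlapped because of the DN3 library of WT05, and the KO-labelled groups were separated by less than 1 CPM. The stage difference was 0.15 (SE 0.11, adjusted p = 0.405 by edgeR) in Wt and 0.23 (SE 0.12, adjusted p = 0.217 by edgeR) in KO-labelled mice. The Wt value was 0.26 without the DN3 library of WT05 (adjusted p = 0.0576), 0.10 without that of WT46 and 0.08 without that of WT48, and the KO-labelled value was 0.12 without the DN4 library of KO45. Within mice the log2 change ranged from 0.01 (KO51) to 0.46 (KO45) and was above 0 in 6 of 6.

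Ccng1 encodes cyclin G1, which recruits a phosphatase to Mdm2 and belongs to the same feedback. The gene lies on chromosome 11 at 40748552 to 40755311. It was at 56.5 (WT05), 55.3 (WT46) and 63.0 CPM (WT48) in Wt DN3 and at 129 (WT05), 96.5 (WT40), 83.5 (WT46) and 77.4 CPM (WT48) in Wt DN4. Every Wt DN4 library was above every Wt DN3 library, and the fitted difference was 0.70 (SE 0.18, adjusted p = 0.0237 by edgeR). In KO-labelled mice it was at 65.6 (KO45), 55.9 (KO49) and 65.1 CPM (KO51) in DN3 and at 75.8, 90.6 and 65.4 CPM in the DN4 libraries of the same mice. There the groups overlapped, and the difference was 0.29 (SE 0.15, adjusted p = 0.217 by edgeR), or 0.15 without the DN4 library of KO49. The difference between these stage differences was itself tested as an interaction, at -0.42 (SE 0.25, adjusted p = 1 by edgeR), so Ccng1 was not shown to respond differently in the genotypes. Without the DN4 library of WT05 the interaction was -0.24. The Wt call was lost without any single DN3 library, at 0.67 without that of WT05, 0.67 without WT46 and 0.76 without WT48 (adjusted p = 0.0515, 0.0838 and 0.0571 by edgeR), and with library totals in place of TMM scaling (0.88, adjusted p = 0.0654).

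Cdkn1a encodes p21, the inhibitor of cyclin-dependent kinases through which p53 stops the cell cycle, and it carried the best matched p53 decamers of the promoters above. The gene spans 29090976 to 29100727 on chromosome 17. In DN3 it was at 16.4 (WT05), 39.1 (WT46) and 31.9 CPM (WT48) in Wt and at 31.2 (KO45), 33.0 (KO49) and 27.5 CPM (KO51) in KO-labelled mice. In DN4 it was at 7.08 (WT05), 7.03 (WT40), 6.15 (WT46) and 7.30 CPM (WT48) in Wt and at 3.94 (KO45), 6.91 (KO49) and 5.78 CPM (KO51) in KO-labelled mice. All 6 DN3 libraries were above all 7 DN4 libraries, and the lowest DN3 value was that of the library that stood apart.

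The mean of Cdkn1a went from 29.2 ± 11.6 to 6.89 ± 0.506 CPM in Wt (SD, n = 3 and 4) and from 30.6 ± 2.82 to 5.54 ± 1.502 CPM in KO-labelled mice (SD, n = 3 each). It fell by 2.12 on the log2 scale in Wt (SE 0.27, adjusted p = 0.00114 by edgeR) and by 2.48 in KO-labelled mice (SE 0.24, adjusted p = 0.00065 by edgeR). Per kb of exon the Wt mean fell from the 50.93 to the 19.88 percentile of expressed coding genes. Cdkn1a was lower in DN4 in 6 of 6 mice, by log2 changes of -2.98 (KO45) to -1.21 (WT05). Leaving out each library in turn gave -2.40 to -1.85 in Wt and -2.69 to -2.31 in KO-labelled mice, with the call kept each time. On the opposite strand Cdkn1a overlaps the annotated gene AC167363.2, and since the strand setting of the counting is not given, reads of the pair may not have been told apart.

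Zmat3, a zinc finger RNA-binding protein encoded on chromosome 3 at 32334792 to 32366014, moved against Cdkn1a. It was at 13.2 (WT05), 4.69 (WT46) and 3.85 CPM (WT48) in Wt DN3 and at 19.0 (WT05), 18.4 (WT40), 19.9 (WT46) and 13.5 CPM (WT48) in Wt DN4. In KO-labelled mice it was at 5.44 (KO45), 5.46 (KO49) and 4.02 CPM (KO51) in DN3 and at 15.5, 12.7 and 10.8 CPM in DN4. The stages did not overlap in either genotype, and the DN3 library of WT05 lay far above the other 5 DN3 libraries and just below the lowest Wt DN4 library. The rise was 1.37 (SE 0.41, adjusted p = 0.0419 by edgeR) in Wt and 1.36 (SE 0.24, adjusted p = 0.00746 by edgeR) in KO-labelled mice on the log2 scale. Without the DN3 library of WT05 the Wt value was 2.01 (SE 0.23, adjusted p = 0.00144 by edgeR), and leaving out single libraries moved it between 1.05 and 2.01. The Wt call was lost without the DN3 library of WT46 (1.12, adjusted p = 0.14) or WT48 (1.05, adjusted p = 0.124), and without the DN4 library of WT05 (1.33, adjusted p = 0.107), WT40 (1.36, adjusted p = 0.0754) or WT46 (1.31, adjusted p = 0.0865). Zmat3 rose within 6 of 6 mice, by 0.53 (WT05) to 2.08 (WT46).

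Trp53inp1, a stress-induced protein of autophagy and cell death encoded on chromosome 4 at 11156431 to 11174379, was the second most abundant member per length, at 32.5 ± 5.72 CPM per kb in Wt DN3 and 55.2 ± 12.8 in Wt DN4 (SD, n = 3 and 4). It was at 251.7 (WT05), 198.5 (WT46) and 180.4 CPM (WT48) in Wt DN3 and at 414.6 (WT05), 438.6 (WT40), 315.6 (WT46) and 261.9 CPM (WT48) in Wt DN4. In KO-labelled mice it was at 242.7 (KO45), 221.3 (KO49) and 221.8 CPM (KO51) in DN3 and at 529.8, 290.5 and 308.4 CPM in DN4. The stages did not overlap in either genotype, and KO45 was the highest DN4 library. Trp53inp1 rose by 0.74 (SE 0.21, adjusted p = 0.032 by edgeR) in Wt. The call was lost without the DN3 library of WT46 (0.70, adjusted p = 0.103) or WT48 (0.64, adjusted p = 0.112) and without the DN4 library of WT05 (0.67, adjusted p = 0.0913) or WT40 (0.63, adjusted p = 0.0738).

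In KO-labelled mice the Trp53inp1 value was 0.69 (SE 0.22), and its adjusted p was 0.0658 by edgeR. With the mouse as a block, which compares the stages within each animal, it passed (0.64, SE 0.12, adjusted p = 0.00352 by edgeR). Without the block, leaving out the DN4 library of KO45, the highest, brought the value to 0.34 (adjusted p = 0.0887), while without the DN4 library of KO49 (0.85, adjusted p = 0.0494) or KO51 (0.81, adjusted p = 0.0461) it passed. Leaving out single DN3 libraries gave 0.65 to 0.75 with adjusted p of 0.0972 to 0.203. The block fit called 35.8% of all genes tested in KO-labelled mice and 18.9% in Wt. The interaction of stage and genotype for Trp53inp1 was -0.05 (SE 0.33, adjusted p = 1 by edgeR). Within mice the change ran from 0.39 (KO49) to 1.13 (KO45), above 0 in 6 of 6.

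The other members act in apoptosis and growth control. Aen, a nuclease that acts in apoptosis, was at 77.8, 58.7 and 66.4 CPM in the Wt DN3 libraries of WT05, WT46 and WT48 and at 49.4, 63.2 and 74.6 CPM in DN3 of KO45, KO49 and KO51. In DN4 it was at 48.2 to 60.1 CPM in Wt and 41.4 to 62.2 CPM in KO-labelled mice. The groups overlapped in both genotypes, with log2 differences of -0.33 (SE 0.13, adjusted p = 0.113 by edgeR) in Wt and -0.26 (SE 0.19, adjusted p = 0.395 by edgeR) in KO-labelled mice, although DN4 was the lower in 6 of 6 mice. The KO-labelled value was -0.14 without the DN3 library of KO51 or the DN4 library of KO45, and -0.40 without the DN4 library of KO49.

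Phlda3, which restrains the kinase Akt, lay between 5.002 and 7.38 CPM in the 6 DN3 libraries and between 4.15 and 6.80 CPM in the 7 DN4 libraries. Its stage differences were -0.08 (SE 0.23) in Wt and -0.11 (SE 0.28) in KO-labelled mice, with adjusted p of 0.854 and 0.809 by edgeR, and it was higher in DN4 in 2 of 6 mice. Leaving out single libraries moved these values between -0.18 and 0.06 in Wt and between -0.36 and -0.02 in KO-labelled mice, with the extremes without the DN3 libraries of WT05 and WT48 and the DN4 libraries of KO49 and KO45.

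Perp, a membrane protein of p53-dependent apoptosis and of cell adhesion, was counted 0, 2 and 1 times in DN3 of WT05, WT46 and WT48 and had 14, 12, 4 and 1 counts in DN4 of WT05, WT40, WT46 and WT48. In KO-labelled mice it had 0 counts in all 3 DN3 libraries and 6, 13 and 9 in DN4. Summed over groups and scaled for library size, the DN4 to DN3 ratio in Wt was 5.49 (exact 95% counting interval 1.71 to 28.1, from 31 and 3 counts), and in KO-labelled mice DN4 was at least 7.24-fold higher, with DN3 set at 3 counts over the group. The interval and the bound cover counting error only, not the spread between mice. With no filter, or with DESeq2, Perp was tested between the stages and was called in KO-labelled mice (adjusted p = 0.00903 by edgeR and 0.0106 by DESeq2) but not in Wt (adjusted p = 0.192 and 0.199). It also passed the filter in KO-labelled mice without the DN3 library of KO49 or KO51, and was then not called (adjusted p = 0.0516 and 0.0551 by edgeR), nor was it in Wt without any single DN3 library (adjusted p = 0.212 to 0.284).

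Eda2r, an X-linked death receptor of the tumour necrosis factor receptor family, was hardly detected. It had 0 counts in the 3 Wt DN3 libraries and 3, 4, 0 and 0 counts in the Wt DN4 libraries. In KO-labelled mice there was 1 count in all of DN3 and 1 in all of DN4. Eda2r passed the filter in no comparison.

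**Figure D2:**
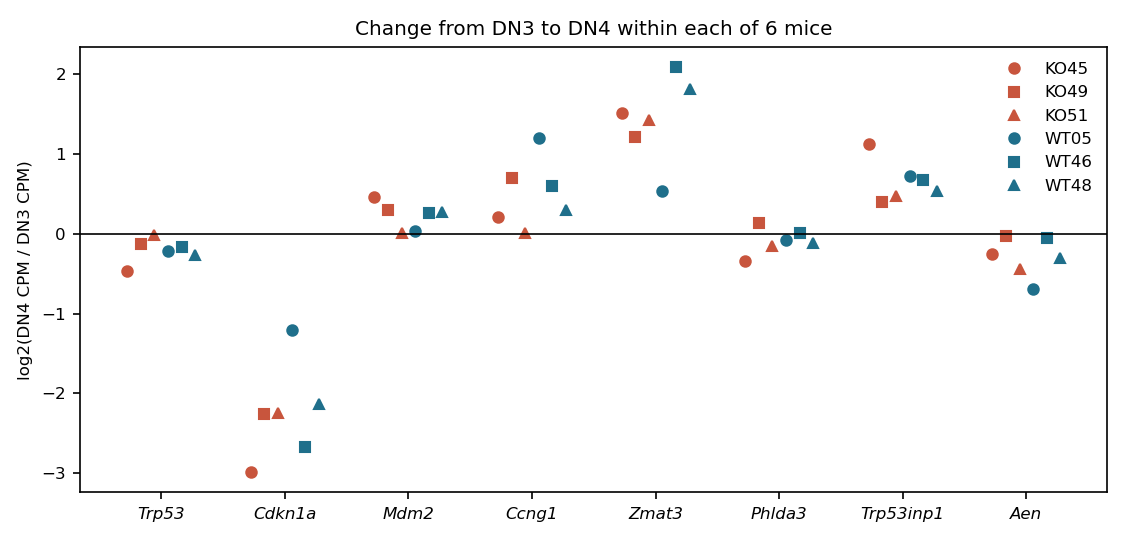
Log2 ratio of DN4 to DN3 CPM within each of the 6 mice with both stages, for the 8 members with enough counts. Cdkn1a lies between -2.98 and -1.21 and Zmat3 between 0.53 and 2.08, while Phlda3 lies on both sides of 0.

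The B cell marker sum was added as a covariate in a fit of all 13 libraries, chosen after the data were seen, so both the libraries fitted and the covariate differ from the fits above. The Wt values were then -2.22 (SE 0.32) for Cdkn1a, 1.58 (SE 0.40) for Zmat3, 0.96 (SE 0.26) for Trp53inp1 and 0.69 (SE 0.21) for Ccng1. Their adjusted p were 0.000337, 0.0148, 0.0209 and 0.0375 by edgeR. In KO-labelled mice Cdkn1a was at -2.55 (SE 0.31) and Zmat3 at 1.51 (SE 0.40) in that fit, with adjusted p of 0.000111 and 0.0189, and Trp53inp1 at 0.88 (SE 0.26, adjusted p = 0.0325 by edgeR). In the fit of all libraries without the covariate Trp53inp1 passed as well (0.72, adjusted p = 0.0499). The part of the ISP and DP, stromal, myeloid, NK cell, gamma delta T and erythroid markers in the stage differences was not tested.

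The genotype comparison asked whether p53 targets differ between KO-labelled and Wt thymocytes of one stage. None of the members passed the test at either stage. In DN3 0 of 8 tested members passed by edgeR, with 0 at an unadjusted p under 0.05, and 0 members passed by DESeq2. The background was 0% of 12105 genes by edgeR, of which 168 were under an unadjusted p of 0.05. In DN4 0 of 9 passed by edgeR, again with 0 at an unadjusted p under 0.05, against 0.0535% of 13084 genes (7 genes). By DESeq2 0 members passed there, against 0.409% of 13219 genes (54 genes). Without single libraries 0 genes were called by edgeR in 5 of 7 such fits, those without KO49, KO51, WT05, WT40 or WT46, and 2 and 8 genes without KO45 and WT48. The CPM of the genotypes overlapped for every tested member, 8 in DN3 and 9 in DN4, where 6.44% and 7.08% of all genes tested did not overlap.

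In DN3 the fitted KO-labelled to Wt difference was -0.11 (SE 0.13) for Trp53, 0.03 (SE 0.27) for Cdkn1a and -0.14 (SE 0.15) for Mdm2 on the log2 scale. It was 0.09 (SE 0.13) for Ccng1, 0.12 (SE 0.16) for Trp53inp1, -0.12 (SE 0.18) for Aen and -0.23 (SE 0.27) for Phlda3. Zmat3 had the widest error, -0.46 (SE 0.48), and all 8 had an adjusted p of 1 by edgeR. Without the DN3 library of WT05 the value for Zmat3 was 0.21 and that for Cdkn1a -0.22, so the direction of Zmat3 rested on that library. That of Cdkn1a, near 0, also turned without the DN3 library of KO49 (-0.02). Leaving out single libraries moved Trp53 between -0.17 and -0.04, Mdm2 between -0.23 and -0.02 and Ccng1 between 0.045 and 0.16. It moved Trp53inp1 between 0.02 and 0.27 and Phlda3 between -0.32 and -0.09. With library totals in place of TMM scaling the values for Trp53, Mdm2 and Aen turned positive, to 0.11, 0.14 and 0.15.

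In DN4 the member with the smallest p was Zmat3, at 12.96 ± 2.37 CPM in KO-labelled mice and 17.7 ± 2.87 in Wt (SD, n = 3 and 4), a log2 difference of -0.41 (SE 0.19, adjusted p = 0.883 by edgeR). Ccng1 was at -0.29 (SE 0.19), Cdkn1a at -0.28 (SE 0.22) and Phlda3 at -0.23 (SE 0.23), with adjusted p of 0.9, 0.911 and 0.94 by edgeR. Single libraries moved these values. That of Ccng1 was -0.13 without WT05 and -0.17 without KO51, that of Cdkn1a was -0.10 without KO45 and -0.46 without KO49, and that of Phlda3 was -0.12 without KO45, -0.14 without KO51 and -0.45 without KO49. Trp53 was at -0.06 (SE 0.12), Mdm2 at -0.02 (SE 0.10), Aen at -0.02 (SE 0.15), Trp53inp1 at 0.11 (SE 0.26) and Perp at 0.12 (SE 0.71), with adjusted p of 0.983 to 0.994. Mdm2 had the narrowest error of these and Perp the widest. A p that misses the threshold does not show that the genotypes were alike.

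**Figure D3:**
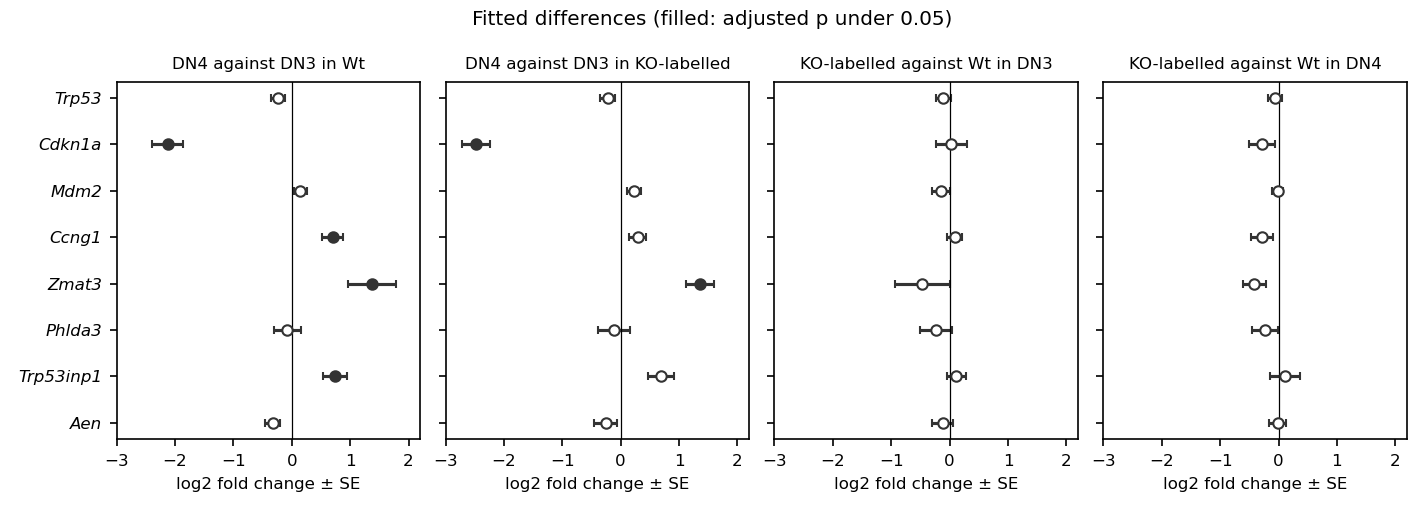
Fitted log2 fold change with its standard error for the 8 members tested in all 4 comparisons, filled where the adjusted p was under 0.05. Calls lie in the stage comparisons (4 in Wt, 2 in KO-labelled mice) and the genotype comparisons have 0.

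The stage by genotype interaction asks whether the stage difference itself differs between genotypes. Among 8 tested members 0 passed by edgeR, with 0 at an unadjusted p under 0.05, and 0 members passed by DESeq2. The background was 0% of 13361 genes by edgeR. The median over the members was -0.03, beside -0.02 over all genes tested. Next to Ccng1, the largest value was that of Cdkn1a, -0.36 (SE 0.37, adjusted p = 1 by edgeR). For Zmat3 it was -0.02 (SE 0.51), the widest error. Without the DN3 library of WT05 the interaction was -0.07 for Cdkn1a, -0.65 for Zmat3 and -0.38 for Ccng1, each with an adjusted p of 1 by edgeR. The order of Ccng1 and Cdkn1a was kept there, but turned without some other single libraries, such as the DN3 library of WT46 (-0.38 and -0.63).

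Other genes of the p53 pathway were taken from 63 listed genes, of which 55 were tested between the stages. In Wt 11 were higher and 1 lower in DN4, and in KO-labelled mice 7 were higher and 1 lower. The share called higher was 20% in Wt and 12.7% in KO-labelled mice, against 13.4% and 11.2% of all genes tested, and the share called lower was 1.82% in both, against 9.43% and 7.34%. Their median log2 difference was -0.02 in Wt and 0.13 in KO-labelled mice. With the mouse as a block the count in KO-labelled mice was 18, where 35.8% of all genes passed, and the 10 genes gained are given by role below.

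By role, the calls were as follows. Of 8 tested arrest and growth targets, 5 rose in Wt and 4 in KO-labelled mice, with medians of 0.98 and 0.76. In both genotypes Plk3, a stress kinase, rose (1.31, SE 0.27, in Wt and 1.28, SE 0.22, in KO-labelled mice), as did Sfn, the 14-3-3 sigma protein that holds cells before mitosis (1.32, SE 0.22, and 0.94, SE 0.22), and Sesn1, a sestrin that restrains growth signalling (0.84, SE 0.19, and 0.66, SE 0.15). Gadd45a, a growth arrest protein induced by DNA damage, rose in Wt from 5.16 to 11.4 CPM (1.12, SE 0.23, adjusted p = 0.0102 by edgeR), and the antiproliferative Btg2 from 134.7 to 227 CPM (0.72, SE 0.20, adjusted p = 0.0306 by edgeR). With the mouse as a block Gadd45a (0.91, adjusted p = 0.0179) and Btg2 (0.49, adjusted p = 0.00576) passed in KO-labelled mice too. The polo-like kinase Plk2 rose in KO-labelled mice from 0.894 to 3.27 CPM (1.86, SE 0.49, adjusted p = 0.034 by edgeR), and passed in Wt with the mouse as a block (2.08, adjusted p = 0.0399). Cdkn1a, itself an arrest gene, went the opposite way from the 5 arrest and growth targets called in Wt.

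Of 10 tested apoptosis targets, 2 rose in each genotype. They were Fas, the death receptor, from 2.23 to 16.9 CPM in Wt (2.79, SE 0.38, adjusted p = 0.00149 by edgeR) and from 3.72 to 22.4 CPM in KO-labelled mice (2.55, SE 0.47, adjusted p = 0.00813 by edgeR), and Bbc3, which encodes the BH3-only protein Puma (1.36, SE 0.26, and 1.54, SE 0.30). None of 7 DNA repair targets and none of 6 metabolic targets passed in either genotype by edgeR without the block, with 1 and 1 at an unadjusted p under 0.05 in Wt and 0 and 2 in KO-labelled mice. Of 12 p53 regulators and family members 1 rose in Wt, the ubiquitin ligase gene Rchy1 (0.53, SE 0.11), and 0 in KO-labelled mice by edgeR, where 2 were under an unadjusted p of 0.05. With the mouse as a block the metabolic target Pank1 (-0.79, adjusted p = 0.048) and the regulators Mdm4 (0.31, adjusted p = 0.0157), Rchy1 (0.34, adjusted p = 0.0389) and Chek1 (-0.29, adjusted p = 0.0369) passed in KO-labelled mice.

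Among the 12 other targets tested, the receptor tyrosine kinase gene Epha2 had the largest change of the list. It fell from 7.51 to 0.627 CPM in Wt (-3.62, SE 0.57, adjusted p = 0.00301 by edgeR) and from 5.45 to 0.3001 CPM in KO-labelled mice (-4.12, SE 0.43, adjusted p = 0.00102 by edgeR). Ptp4a3, a phosphatase, rose in both (0.86, SE 0.19, and 0.66, SE 0.16), and Ddit4, an inhibitor of mTORC1, and Rap2b, a small GTPase, rose in Wt (1.74, SE 0.37, and 0.56, SE 0.12). In the block fit Ddit4 (1.42, adjusted p = 1.23e-05), Tap1 (0.51, adjusted p = 0.00515), Ninj1 (-0.85, adjusted p = 0.0113) and Dcxr (-0.80, adjusted p = 0.0367) passed in KO-labelled mice and Tap1 (0.71, adjusted p = 0.0333) in Wt. Of 12 proliferation genes 0 passed in either genotype by edgeR without the block, with 0 in Wt and 2 in KO-labelled mice at an unadjusted p under 0.05. In the block fit 4 of the 12 passed in KO-labelled mice, Mki67 (0.56, adjusted p = 0.00108), Ccnb2 (0.45, adjusted p = 0.00521), Top2a (0.35, adjusted p = 0.028) and Plk1 (0.33, adjusted p = 0.0266), and 0 in Wt.

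Some of these calls did not hold in other fits. With the mouse as a block the Wt values of Btg2 and Rap2b had adjusted p of 0.0596 and 0.0528. With library totals in place of TMM scaling the calls of Btg2, Rap2b and Rchy1 in Wt were lost (adjusted p = 0.123, 0.139 and 0.089), and with all libraries in one fit those of Btg2 in Wt (0.75, adjusted p = 0.0517) and Plk2 in KO-labelled mice (1.88, adjusted p = 0.0875). With the B cell marker sum as a covariate the calls of Ddit4 (1.57, adjusted p = 0.0656) and Btg2 (0.43, adjusted p = 0.354) in Wt and of Plk2 (1.55, adjusted p = 0.22), Sesn1 (0.45, adjusted p = 0.0565) and Ptp4a3 (0.39, adjusted p = 0.0769) in KO-labelled mice were lost, of which Btg2 and Plk2 were lost in the fit of all libraries without it too, while Fas, Bbc3, Sfn, Plk3 and Epha2 kept theirs in both genotypes. Leaving out single libraries also ended calls. In Wt that of Btg2 was lost in 5 of 7 cases (0.57 to 0.77 with adjusted p of 0.0547 to 0.0842, without WT05 or WT48 in DN3 or WT05, WT40 or WT48 in DN4), and those of Ptp4a3, Sesn1 and Rap2b were lost without the DN3 library of WT46 (0.85, 0.81 and 0.54). The call of Ddit4 was at its limit without the DN3 library of WT48 (1.59, adjusted p = 0.05). In KO-labelled mice the calls of Plk2, Sfn and Sesn1 were lost in 4 of 6 cases and that of Ptp4a3 in 5 of 6, with the direction kept. The values in those cases were 1.49 to 1.79 for Plk2 (without KO45 or KO49 at either stage), 0.77 to 0.93 for Sfn and 0.52 to 0.67 for Sesn1 (both without KO49 or KO51 in DN3 or KO45 or KO49 in DN4) and 0.50 to 0.73 for Ptp4a3 (every library but KO51 in DN4). Those of Fas, Bbc3, Plk3 and Epha2 held without each library in both genotypes.

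**Figure D4:**
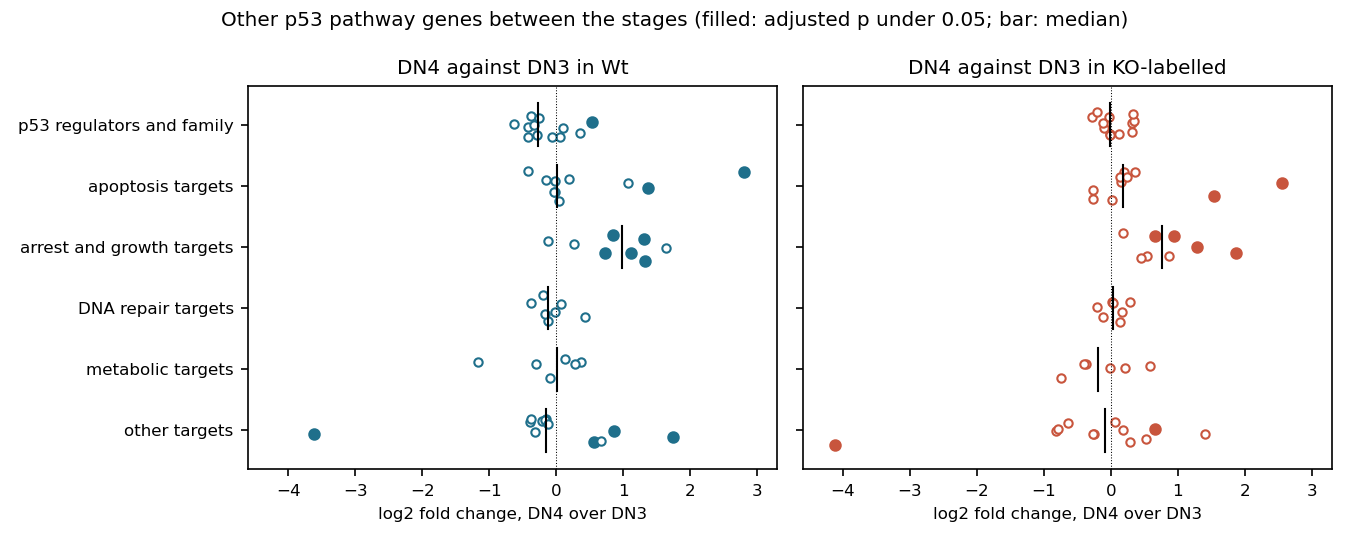
Log2 fold change of DN4 over DN3 for the 55 tested genes of the p53 pathway list, by role, in Wt and in KO-labelled mice. Each point is a gene, filled where the adjusted p was under 0.05, and bars are medians, which are highest for the arrest and growth targets (0.98 and 0.76).

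Between the genotypes 0 of 54 tested pathway genes passed by edgeR in DN3, with 0 at an unadjusted p under 0.05. In DN4 0 of 54 passed, with 4 at an unadjusted p under 0.05 by edgeR. By DESeq2 0 pathway genes passed an adjusted p of 0.05 at either stage. The smallest p in DN3 were those of Tigar, a regulator of glycolysis (-0.47, SE 0.27), Atr, a DNA damage kinase (-0.49, SE 0.28), and Btg2 (0.35, SE 0.21), each with an adjusted p of 1 by edgeR. Without the DN3 library of WT05 these values were -0.40 for Tigar, -0.05 for Atr and 0.21 for Btg2, so that of Atr rested on that library. In DN4 they were those of Psrc1, a spindle protein (0.61, SE 0.16, adjusted p = 0.758 by edgeR), the translesion polymerase Polh (0.37, SE 0.12, adjusted p = 0.856 by edgeR) and Ei24 (-0.24, SE 0.09, adjusted p = 0.883 by edgeR). In the interaction 0 of 55 passed by edgeR, with 3 at an unadjusted p under 0.05, and 0 passed by DESeq2. The smallest p were those of Rap2b (-0.49, SE 0.17), Polh (0.47, SE 0.18) and Psrc1 (0.60, SE 0.27), all with an adjusted p of 1 by edgeR.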

How the data were processed

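RNA of sorted DN3 and DN4 thymocytes was sequenced from stranded mRNA libraries. The authors trimmed reads with Cutadapt, mapped them with STAR to mm10 and made the deposited raw counts per gene with featureCounts (versions and strand setting not given in the sources used here). The table held 47937 genes and 0 columns of no sample. Names and coordinates come from GENCODE M21 on GRCm38, in which 47310 identifiers were found without their version and 39192 with it. Promoters come from RefSeq.

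Tests were quasi-likelihood tests (edgeR 4.0.16, R 4.3.3), run separately for each comparison on the libraries it compares. Genes were kept by filterByExpr (minimum count 10), libraries scaled by TMM, and p-values adjusted over all genes tested by the Benjamini-Hochberg method (threshold 0.05). The procedure was tested on simulated data. Replicates are separate mice. Same-numbered DN3 and DN4 libraries come from the same mouse, and their deviations from the group means correlated over 13361 genes in each of 6 mice (0.124 to 0.46). In the block fit WT40, with no DN3 library, adds nothing to the stage difference. The smallest chi-square per degree of freedom between libraries of a group was 5.85, so none was counted as a duplicate. Alternatives were other scalings, no filter, DESeq2 1.42.0, all libraries in one fit, the mouse as a block, each library left out, and, added after the data were seen, the B cell marker sum as a covariate in the fit of all libraries.

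Named are all 10 members and, of the pathway list, called genes whose stages do not overlap (up to 12 with the largest change) or, where none passed, the 3 with the smallest p. A marker gene that the rule also names is not reported here. Members and lists were chosen with earlier results of these data known.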

Additional observations from a re-analysis of the deposited data

How the results depend on the processing

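Between the stages in KO-labelled mice the members called rose from 2 to 4 with no filter and to 4 with the DESeq2 Wald test, where Perp and Trp53inp1 were added and 13.7% and 19.9% of all genes were called, and the pathway genes called rose from 8 to 18 with the mouse as a replicate block, when calls over all genes rose from 2338 to 4499. Of these 18 genes 8 were called without the block too and 10 were gained. In Wt the pathway count was 12 with and without the block, with 10 genes shared, Plk2 and Tap1 gained and Btg2 and Rap2b lost. Among the members the block changed the call of Trp53inp1 in KO-labelled mice and no other. Without single libraries the members called ranged from 1 to 4 in Wt and from 2 to 3 in KO-labelled mice, and the pathway genes called from 9 to 16 and from 4 to 10, while 14.4% to 25.7% and 10.7% to 21.1% of all genes were called. With library totals in place of TMM scaling the Wt stage values were -0.07 for Trp53, 0.37 for Mdm2 and -0.11 for Aen, and none was called. Over all alternatives 0 members were called between the genotypes or in the interaction, and Cdkn1a kept its stage call in both genotypes.

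Every change of direction was in a value that had not passed the test, and the cause was not tested. With library totals in place of TMM scaling Phlda3 was at 0.072 between the stages in Wt, Trp53, Mdm2 and Aen were at 0.11, 0.14 and 0.15 between the genotypes in DN3, and their interactions were -0.16, -0.14 and -0.16. The interaction of Trp53 was -0.0061 with the B cell covariate, and that of Trp53inp1 was 0.023 with the replicate block. Without single libraries the values spanned 0 as follows. Phlda3 ran from -0.18 to 0.062 between the stages in Wt. In DN3 the genotype difference ran from -0.22 to 0.30 for Cdkn1a, from -0.79 to 0.21 for Zmat3 and from -0.27 to 0.024 for Aen. In DN4 it ran from -0.12 to 0.030 for Trp53, from -0.11 to 0.042 for Mdm2, from -0.24 to 0.28 for Trp53inp1, from -0.22 to 0.49 for Perp and from -0.13 to 0.12 for Aen. The interaction ran from -0.057 to 0.11 for Trp53, from -0.017 to 0.17 for Mdm2, from -0.65 to 0.30 for Zmat3, from -0.28 to 0.087 for Phlda3, from -0.38 to 0.10 for Trp53inp1 and from -0.081 to 0.21 for Aen. Counts near 0 limit Perp and Eda2r, and the 3491009 counts of the DN3 library of WT05 on other genes limit the Wt DN3 values.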
